A study of Mus musculus with 8 samples.

Results

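The transcripts of antioxidant defence and of the NRF2 (nuclear factor erythroid 2-related factor 2) pathway were examined in the retina of Lpcat1 wildtype (WT) and Lpcat1 knockout (KO) mice. The set held 48 genes, listed by symbol. It covered NRF2 and its regulator, NRF2 targets and heme-degrading enzymes, the enzymes of the glutathione and thioredoxin systems, peroxiredoxins, superoxide dismutases and catalase, glutathione peroxidases and transferases, ferritins, aldehyde dehydrogenases, subunits of superoxide-producing oxidases and an uncoupling protein. All 48 genes had at least 1 named probe, 64 probes in all, among 20018 genes with a named probe on the array. A probe entered the test when the extraction software marked it as well above background on every array of one genotype or of both. This left 47 of the 48 genes, among 14937 genes in all.

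Both groups were whole retinas of 2-week-old mice, labelled as strain C57BL/6, with 4 samples of genotype Lpcat1 WT and 4 of genotype Lpcat1 KO. Lpcat1 encodes lysophosphatidylcholine acyltransferase 1, which adds a fatty acid to lysophosphatidylcholine and makes saturated phosphatidylcholine. The knockout was present in every cell of the animal, and per the study's methods the line had been crossed from C57BL6/N to C57BL6/J so that no mouse was homozygous for the rd8 mutation of Crb1. The study compared the genotypes to look for the cause of photoreceptor cell death, and the set described here holds the genes that answer oxidative stress. The labels do not say that the samples came from separate animals, so p-values measure the spread between these samples. All 8 arrays shared 1 slide, with the WT arrays in one row and the KO arrays in the other, so row and genotype cannot be told apart.

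NRF2, encoded by Nfe2l2, is a transcription factor that is held in the cytoplasm and passed to degradation by KEAP1. When reactive cysteines of KEAP1 are modified by oxidants, NRF2 escapes, enters the nucleus and binds antioxidant response elements together with small MAF proteins. Its targets rebuild glutathione, reduce quinones and peroxides, and degrade heme. Photoreceptors carry highly unsaturated membranes beside densely packed mitochondria, and Müller glia hold much of the glutathione of the retina.

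Expression differed little between the genotypes across the set. Of the 47 genes tested, 2 rose in KO and 0 fell, which is 4.26% of them. Of all tested genes, 3.47% were called (519 genes), with 1.99% higher in KO (297 genes) and 1.49% lower (222 genes). The 2 were Mgst1, a membrane-bound glutathione S-transferase, and Prdx6, a peroxiredoxin that reduces phospholipid hydroperoxides. A gene was called at a limma adjusted p under 0.05 with a fold change over 1.2, the thresholds that the study names for its arrays. Leaving out 1 array gave 1 gene of the set, Mgst1, and 238 to 312 of all genes in 7 of 8 fits, and 2 and 593 without KO sample 1. The split of all called genes depended on the scaling, with 370 higher and 166 lower when the percentile was taken over probes detected on all arrays, and 389 higher and 145 lower after cyclic loess. The share among the set's genes was near that background.

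Without the minimum fold change, 4 of the 47 genes passed the test, all of them higher in KO. The added genes were Cyba and Srxn1. These 4 genes were 8.51% of those tested, where 6.62% of all tested genes passed, 3.3% higher and 3.32% lower in KO. At an unadjusted p under 0.05, limma counted 16 of the 47 (34.0%, all tested genes 26.2%) and the methods' t-test 14 (29.8%, all tested genes 28.1%). Without the filter on dim probes, 0 of the set's genes were called, with a limma adjusted p of 0.0568 for Mgst1 and 0.0996 for Prdx6. The median difference, KO minus WT on the log2 scale, was -0.01 over the 47 genes and -0.02 over all tested genes, with 22 genes above 0 and 25 below it. The differences ran from -0.19 for Nox4 to 0.31 for Mgst1. Of the 47 genes, 45 (95.7%) differed by less than 1.2-fold, against 92.3% of all tested genes. For 33 of the 47, the whole 95% confidence interval lay within 1.2-fold in either direction (70.2%, all tested genes 63.6%).

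**Figure D1:**
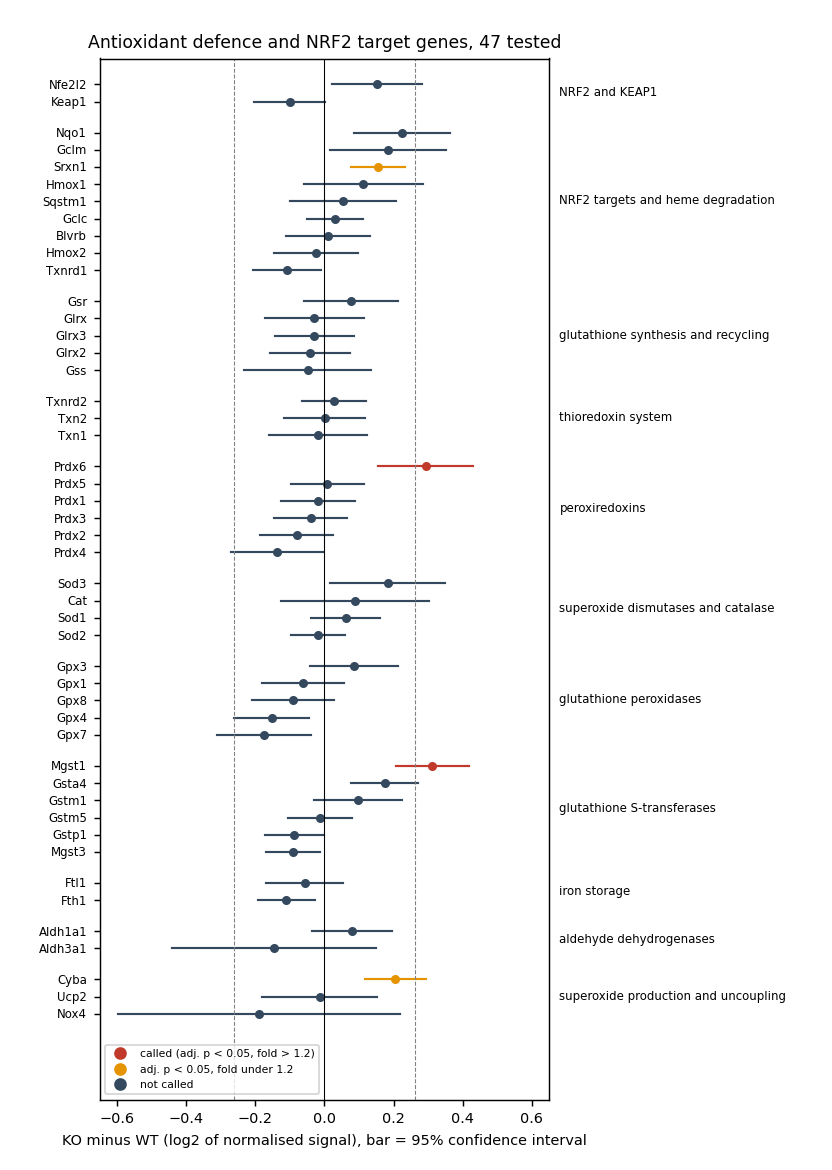
Difference between genotypes for each of the 47 tested genes, grouped by role. Points are KO minus WT on the log2 scale, bars are 95% confidence intervals of limma (4 arrays per genotype), and dashed lines mark 1.2-fold. Mgst1 (0.31) and Prdx6 (0.29) lie beyond the line on the right, and no gene passes the test on the left.

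The promoters of 3 genes are shown. Mgst1 is the called gene with an entry (Prdx6 had none), Srxn1 passed the test without the minimum fold change, and Prdx1, of the same family as Prdx6, carries the same motif as Srxn1. RefSeq promoter windows, from 250 bases before to 50 after a start site (GRCm38.p6), were matched for 41 of the 48 genes. Each sequence holds the 250 bases before the start, read on the + strand, and capitals mark every match to TGACNNNGC, the core of the antioxidant response element, to TGANTCA, the AP-1 motif, or to TGANTCAGC, on either strand. Mgst1 lies at chr6:138140277-138140526, Srxn1 at chr2:152105274-152105523 and Prdx1 at chr4:116685349-116685598. Mgst1 has a second start site, whose 250 bases hold no match.
Mgst1: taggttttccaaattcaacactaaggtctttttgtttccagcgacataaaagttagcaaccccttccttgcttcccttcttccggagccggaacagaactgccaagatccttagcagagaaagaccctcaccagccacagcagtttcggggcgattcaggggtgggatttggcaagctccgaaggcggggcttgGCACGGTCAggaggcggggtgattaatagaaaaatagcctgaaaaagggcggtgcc
Srxn1: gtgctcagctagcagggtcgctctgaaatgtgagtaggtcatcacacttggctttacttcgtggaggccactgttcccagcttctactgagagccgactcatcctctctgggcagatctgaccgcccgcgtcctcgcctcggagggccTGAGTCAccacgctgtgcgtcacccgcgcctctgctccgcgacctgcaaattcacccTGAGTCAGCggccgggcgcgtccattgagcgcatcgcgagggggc
Prdx1: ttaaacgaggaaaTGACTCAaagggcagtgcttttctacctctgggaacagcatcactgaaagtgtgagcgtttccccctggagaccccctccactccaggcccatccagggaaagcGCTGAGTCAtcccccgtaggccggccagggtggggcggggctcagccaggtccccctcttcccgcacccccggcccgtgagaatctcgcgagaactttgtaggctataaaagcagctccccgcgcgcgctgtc

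TGACNNNGC was found in the windows of 9 of the 41 genes (22.0%), against 14.0% of all genes in the table. These genes were Nfe2l2, Gclm, Srxn1, Txnrd1, Prdx1, Sod1, Gstm5, Mgst1 and Ucp2. TGANTCA was found in 7 genes (17.1%, all genes 8.97%), namely Srxn1, Glrx, Prdx1, Gstm5, Gstp1, Aldh1a1 and Cybb. TGANTCAGC, which contains TGANTCA and can also match TGACNNNGC, was found in Srxn1, Prdx1 and Gstp1 (7.32%, all genes 1.37%). A gene could have more than 1 window, with 57 windows for the 41 genes and 32851 for all 27025 genes. By window, TGACNNNGC was in 9 of 57 (all windows 12.4%), TGANTCA in 8 (7.81%) and TGANTCAGC in 3 (1.19%). The Srxn1 match to TGACNNNGC begins at base 29 counted from the start site and so lies outside the sequence printed. A match describes these letters in these windows and is not a binding site. The genes with TGACNNNGC ran from the most raised of the set, Mgst1, over Srxn1 (0.15) and Prdx1 (-0.02) to Txnrd1 (-0.11). Hmox1, Gclc, Gsr, Prdx6, Sod3, Gsta4 and Aldh3a1 had no entry.

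Nfe2l2 and Keap1 were both detected on every array. Levels are given as log2 signal after subtraction of each array's 75th percentile, and the levels of different probes are not comparable. Nfe2l2 read 0.89, 0.87, 0.80 and 1.05 in the WT samples 1 to 4 and 1.04, 1.06, 1.09 and 1.03 in the KO samples. WT sample 4 lay inside the KO range, and the other WT samples lay below it. The difference was 0.15 (SE 0.06, 95% confidence interval 0.02 to 0.28, limma adjusted p = 0.156). Keap1 was 2.76 ± 0.05 in WT and 2.65 ± 0.05 in KO, each the mean ± SD of 4 arrays, a difference of -0.10 (limma adjusted p = 0.218). The 95% confidence interval of Keap1, from -0.20 to 0.0019, lay within 1.2-fold, and that of Nfe2l2 reached past it.

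The next group joined NRF2 targets with heme-degrading enzymes, 9 genes in all, among them Hmox2, which is not a classical target. Limma called 0 of 9, and 4 had an unadjusted p under 0.05 (44.4%, all tested genes 26.2%). Genes known as NRF2 targets also stand in other groups of the set, among them Prdx1 (-0.02), Txn1 (-0.02), Gstp1 (-0.09), Fth1 (-0.11) and Ftl1 (-0.06), of which limma called 0. Srxn1, sulfiredoxin, restores peroxiredoxins that have been overoxidised to the sulfinic form. It read 3.05, 3.06, 3.12 and 3.08 in WT and 3.23, 3.26, 3.23 and 3.21 in KO. Every KO sample lay above every WT sample. The difference was 0.15 (SE 0.03, limma adjusted p = 0.0420), 11.3% higher in KO and so under the minimum fold change. The fits that left out 1 array gave adjusted p-values of 0.0637 to 0.117, and a median shift gave 0.107.

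Nqo1, a quinone reductase and a standard reporter of NRF2 activity, read -3.10, -3.12, -3.26 and -3.13 in WT and -2.85, -2.88, -3.07 and -2.92 in KO. Its groups did not overlap either. The difference of 0.22 (SE 0.06, 95% confidence interval 0.09 to 0.36) gave a limma adjusted p of 0.0693, and the alternatives moved it both ways. After cyclic loess the gene was called (0.28, adjusted p = 0.0431), and under normexp background correction the difference was 0.12 (adjusted p = 0.114). Gclm, the modifier subunit of the enzyme that starts glutathione synthesis, differed by 0.18 with overlapping groups (SE 0.07, limma adjusted p = 0.175). Gclc, the catalytic subunit of that enzyme, differed by 0.03 (95% confidence interval -0.05 to 0.11).

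Heme degradation showed no call. Hmox1, the inducible heme oxygenase, ranged from -1.42 to -1.27 in WT and from -1.35 to -1.01 in KO. Its 8 values interleaved, and the difference was 0.11 (SE 0.08, limma adjusted p = 0.407). Its second probe gave 0.01. Hmox2, the constitutive heme oxygenase, differed by -0.02, and Blvrb, a biliverdin reductase, by 0.01. Txnrd1, the cytosolic thioredoxin reductase, had the most negative difference of these 9 genes, at 2.10 ± 0.05 in WT and 1.99 ± 0.05 in KO, which is -0.11 (limma adjusted p = 0.172). Sqstm1, the autophagy receptor p62 that binds KEAP1, differed by 0.05, with KO samples 1 and 2 at 1.83 and 1.90 and KO samples 3 and 4 both at 2.09.

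The peroxiredoxins reduce hydrogen peroxide and organic peroxides through a reactive cysteine. Of the 6, Prdx6 rose, 0 fell, and the other differences ran from -0.14 (Prdx4) to 0.01 (Prdx5). Prdx6 uses a single cysteine, acts on phospholipid hydroperoxides, and has a phospholipase A2 activity and a described activity for reacylating lysophosphatidylcholine. On its brightest probe it read 4.69, 4.83, 4.85 and 4.91 in WT and 5.0, 5.18, 5.14 and 5.14 in KO. KO sample 1 was the lowest of the KO samples and still lay above all WT samples. The difference was 0.29 (SE 0.06, 95% confidence interval 0.16 to 0.43), a rise of 22.6% with a limma adjusted p of 0.0343.

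Prdx6 was read by 4 probes. The second probe gave 0.30 (limma adjusted p = 0.0328). The third gave 0.33 (SE 0.04, limma adjusted p = 0.0063), with WT samples from 3.12 to 3.17 and KO samples from 3.42 to 3.52. The fourth and dimmest gave 0.61 with an SE of 0.42, and its groups overlapped. On it KO sample 1 read -2.61, KO sample 2 read -4.13, and KO samples 3 and 4 (-4.58 and -4.69) lay within the WT range of -4.81 to -4.49. On 3 of 4 probes every KO sample was above every WT sample. RefSeq lists near-identical copies of this gene, Prdx6b and Prdx6-ps2, and whether their transcripts reach these probes was not tested. Leaving out 1 array at a time, the call at the brightest probe was lost in 7 of 8 fits (limma adjusted p up to 0.0926, kept without KO sample 1). The second probe also lost its call in 7 of 8 fits (limma adjusted p up to 0.0861), and the third stayed called in all 8.

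**Figure D2:**
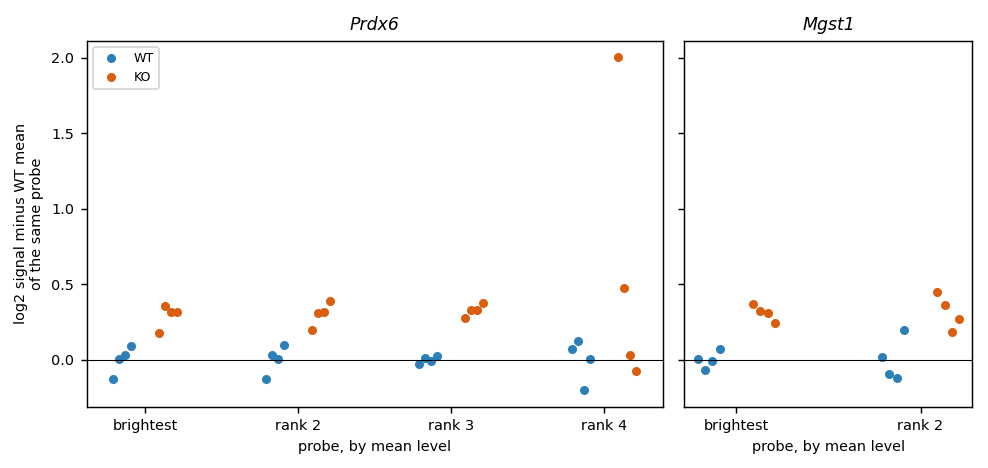
All probes of Prdx6 and Mgst1, each array drawn as log2 signal minus the WT mean of the same probe, with probes ordered by mean level. The 3 brighter Prdx6 probes show KO samples above all WT samples, and on the fourth KO sample 1 stands apart.

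Limma called 0 of the other 5 peroxiredoxins. Prdx1 was 2.93 ± 0.07 in WT and 2.91 ± 0.05 in KO, Prdx2 differed by -0.08 (95% confidence interval -0.19 to 0.02) and mitochondrial Prdx3 by -0.04 (-0.14 to 0.06). Prdx5 differed by 0.01. Prdx4, a peroxiredoxin of the endoplasmic reticulum, read 0.59, 0.56, 0.57 and 0.49 in WT and 0.49, 0.48, 0.44 and 0.26 in KO. Its groups did not overlap, though their nearest values both round to 0.49, and the difference of -0.14 did not pass the test (limma adjusted p = 0.199).

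The glutathione S-transferases couple glutathione to electrophiles. Mgst1 sits in the membranes of the endoplasmic reticulum and the mitochondria, and also reduces lipid peroxides. It read -1.13, -1.20, -1.14 and -1.06 in WT and -0.76, -0.81, -0.82 and -0.89 in KO. The highest WT sample lay below the lowest KO sample. The difference was 0.31 (SE 0.05, 95% confidence interval 0.21 to 0.42), a rise of 24.2% with a limma adjusted p of 0.0138, and it was called in all 8 fits that left out 1 array. With replicate number as a block it was not called (limma adjusted p = 0.0583). A second probe gave 0.32 with a larger SE of 0.09 and overlapping groups (limma adjusted p = 0.0698). Under normexp background correction the difference was 0.26, just below the minimum fold change.

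Gsta4, a transferase for 4-hydroxynonenal, an aldehyde formed when lipids are peroxidised, read -0.41, -0.32, -0.37 and -0.30 in WT and -0.24, -0.14, -0.16 and -0.16 in KO. The groups did not overlap, and the difference of 0.17 (SE 0.04) gave a limma adjusted p of 0.0520. Of the other transferases in the set, Gstm1 differed by 0.10 with overlapping groups, Gstm5 by -0.01, and Gstp1 by -0.09 (limma adjusted p = 0.203) with every KO sample below the WT samples. Mgst3, a second microsomal member, was 1.49 ± 0.02 in WT and 1.40 ± 0.03 in KO, also without overlap and also without passing the test (-0.09, limma adjusted p = 0.157).

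**Figure D3:**
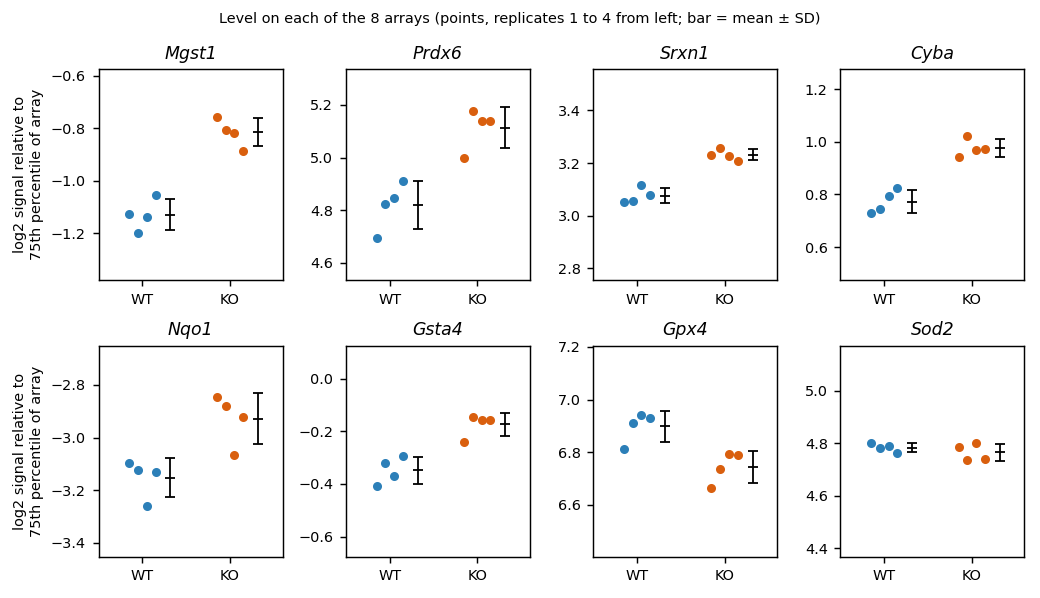
Level of 8 genes on each array as log2 signal relative to the array's 75th percentile, with bars for mean ± SD (n = 4 per genotype). The KO samples lie above all WT samples for Mgst1, Prdx6, Srxn1, Cyba, Nqo1 and Gsta4, below them for Gpx4, and among them for Sod2.

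Of the 5 glutathione peroxidases, limma called 0, and 2 had an unadjusted p under 0.05, where 26.2% of all tested genes had one. The difference was below 0 for 4 of the 5, as it was for 8638 of all 14937 tested genes. Gpx4, the selenoenzyme that reduces phospholipid hydroperoxides within membranes and is needed by photoreceptors, read 6.81, 6.91, 6.94 and 6.93 in WT and 6.66, 6.73, 6.79 and 6.79 in KO. Every KO sample lay below every WT sample. The difference was -0.15 (SE 0.05, 95% confidence interval -0.26 to -0.04, limma adjusted p = 0.0986). Under trend and robust eBayes the adjusted p was 0.0210, and after quantile normalization the difference was -0.04. Gpx7, a peroxidase of the endoplasmic reticulum, differed by -0.17 with overlapping groups (limma adjusted p = 0.124), and Gpx8, of the same compartment, by -0.09. Gpx1, the cytosolic enzyme, differed by -0.06 and the secreted Gpx3 by 0.09.

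The superoxide dismutases turn superoxide into hydrogen peroxide and catalase removes it. Sod2, the mitochondrial enzyme, read 4.80, 4.78, 4.79 and 4.76 in WT and 4.78, 4.73, 4.80 and 4.74 in KO. These values interleaved, and the difference of -0.02 had a 95% confidence interval of -0.10 to 0.06. Sod1, the cytosolic enzyme, differed by 0.06 (-0.04 to 0.16) and Cat by 0.09 (-0.12 to 0.30). Sod3, the extracellular enzyme, differed by 0.18 with WT sample 1 inside the KO range (SE 0.07, limma adjusted p = 0.172).

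Sod2, Prdx3, Txn2, Txnrd2 and Glrx2, soluble enzymes or carriers of mitochondria, were put side by side after their values had been seen, without the membrane proteins Mgst1 (0.31) and Ucp2 (-0.01), which are also found there. The differences of these 5 ran from -0.04 to 0.03, and for all 5 the 95% confidence interval lay within 1.2-fold (all tested genes 63.6%). Txn2, the mitochondrial thioredoxin, was 5.16 ± 0.09 in WT and 5.16 ± 0.03 in KO. Txnrd2, its reductase, differed by 0.03. The cytosolic Txn1 differed by -0.02. The 5 selenoproteins, Gpx1, Gpx3, Gpx4, Txnrd1 and Txnrd2, also grouped afterwards, ran from -0.15 to 0.09.

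The enzymes that make and recycle glutathione showed 0 calls by limma among 5 genes, and 0 had an unadjusted p under 0.05. Gss, glutathione synthetase, differed by -0.05 (95% confidence interval -0.23 to 0.13) and Gsr, glutathione reductase, by 0.08 (-0.06 to 0.21). The glutaredoxins Glrx, Glrx2 and Glrx3, which remove glutathione from proteins or carry iron-sulfur clusters, differed by -0.03, -0.04 and -0.03. Neither ferritin chain was called. Fth1, the heavy chain that oxidises iron for storage, read 7.01, 6.96, 7.02 and 7.01 in WT and 6.93, 6.87, 6.90 and 6.86 in KO. The groups did not overlap, and the difference was -0.11 (limma adjusted p = 0.112). The adjusted p was 0.0270 under trend and robust eBayes and 0.0459 by the methods' t-test, and after quantile normalization the difference was 0.01. Ftl1, the light chain, differed by -0.06 with overlapping groups, and by 0.03 after quantile normalization.

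Counting the genes in which the groups did not overlap gave 6 higher in KO (Nqo1, Srxn1, Prdx6, Gsta4, Mgst1 and Cyba) and 5 lower (Prdx4, Gpx4, Gstp1, Mgst3 and Fth1). These 11 genes were 23.4% of those tested, where 21.2% of all tested genes did not overlap, 8.78% higher and 12.4% lower in KO. The share in the set was thus near that of all genes. The SD among the 4 samples had a median of 0.07 in WT and 0.05 in KO over the 47 genes, with the widest spread for Nox4 in both genotypes. No single array held most of the extremes, but the lowest values fell most often on the samples numbered 1. WT sample 1 was the lowest of the 8 arrays for 11 genes and KO sample 1 for 10, and WT sample 3 was the highest for 10.

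**Figure D4:**
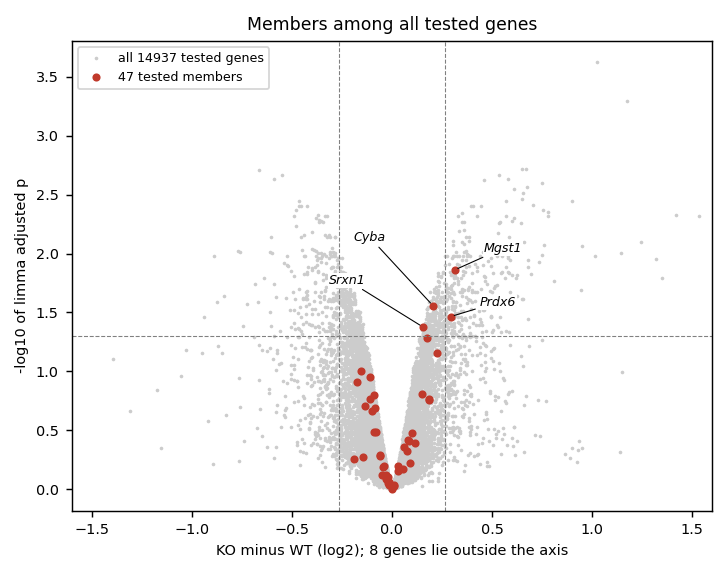
Difference between genotypes (KO minus WT, log2) against the limma adjusted p (-log10 axis) for all 14937 tested genes in grey and the 47 genes of the set in red, with dashed lines at the thresholds. The set lies in the centre of the cloud, with Mgst1 and Prdx6 beyond both thresholds and Cyba and Srxn1 beyond that for p alone; 8 genes lie outside the axis.

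The genes that produce superoxide were read beside those that remove it. Cyba encodes p22phox, the membrane subunit shared by several NADPH oxidases. It read 0.73, 0.74, 0.79 and 0.82 in WT and 0.94, 1.02, 0.97 and 0.97 in KO, with no overlap. The difference was 0.20 (SE 0.04, limma adjusted p = 0.0277), 15.2% higher in KO and so below the minimum fold change. Leaving out 1 array gave adjusted p-values of 0.0390 to 0.0872. A dimmer second probe gave 0.10. Cybb, the catalytic subunit gp91phox of phagocytes, was above the background threshold on 0 of 8 arrays and was not tested. Nox4, another catalytic subunit, differed by -0.19 with a wide 95% confidence interval of -0.60 to 0.22, and Ucp2, the mitochondrial carrier uncoupling protein 2, by -0.01 (-0.18 to 0.15).

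Ncf4, the cytosolic p40phox subunit of the phagocyte oxidase, came from a list of other pathway genes. It read -3.11, -3.20, -3.12 and -2.97 in WT and -2.74, -2.89, -2.75 and -2.76 in KO. The KO samples all lay above the WT samples, and the difference was 0.31 (SE 0.06, limma adjusted p = 0.0277). Under normexp it was 0.16 and no longer called (adjusted p = 0.0742), and 5 of 8 fits that left out 1 array lost the call. Markers of microglia and macrophages moved the same way. All 16 of 16 were higher in KO, as were 6299 of all 14937 tested genes. Of the 16, 13 were higher without overlap (all tested genes 8.78%) and 8 were called higher (all tested genes 1.99%). The median difference was 0.39, with Tyrobp at 0.65, C1qc at 0.57 and C1qb at 0.54 (limma adjusted p from 0.0034 to 0.0053). Leaving out 1 array lost the call of C1qa in 4 of 8 fits and of Ly86 in 2 of 8. Tyrobp, C1qc, C1qb and Trem2 stayed called in all 8. The summed linear level of the 16 ran from 34.0 to 41.4 in the WT samples and from 39.1 to 44.5 in the KO samples, so the sums overlapped. Without Itgam, whose probe had the highest signal of the list and differed by 0.02, the sum of the other 15 ran from 15.6 to 16.9 in the WT samples and from 20.2 to 21.3 in the KO samples. The part of these cells in the values of Cyba and Ncf4 was not tested.

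Other cell types also differed between the groups. The 10 rod markers were all lower in KO, as were 8638 of all 14937 tested genes. Limma called 3 of them (30.0%, all tested genes 1.49% lower), among them Nr2e3 (-0.50) and Sag (-0.36). The summed level of the rod markers ran from 1940 to 2003 in the WT samples and from 1642 to 1722 in the KO samples. Nr2e3 stayed called in 1 of 8 fits without 1 array and missed the threshold in the other 7 (limma adjusted p up to 0.0633), and Sag stayed called in all 8. Of the 8 Müller glia markers, 7 were higher and 2 were called (Kcnj10 0.31 and Apoe 0.29), where 1.99% of all tested genes were called higher. The summed level of the 8 was 229 to 236 in the WT samples and 267 to 276 in the KO samples. No marker of retinal pigment epithelium, blood, blood vessels or lens was called (0 of 24 tested). With 3.47% of all tested genes called, 0 calls among so few genes does not set these lists apart. All 6 vessel markers lay lower in KO, and their sum ran from 21.4 to 22.2 in the WT samples and from 19.3 to 21.2 in the KO samples. Among 11 markers of bipolar, amacrine, horizontal and ganglion cells 0 were called (all tested genes 3.47%). Of these 11, 10 lay higher, as did 6299 of all 14937 tested genes. Their sum was 254 to 262 in the WT samples against 268 to 274 in the KO samples. Of the 7 tested genes in the list for cornea, ciliary body and iris, 3 lay higher and 4 lower, with a median difference of -0.03. Mitf (0.31) was the 1 called there, a call that 3 of 8 fits without 1 array lost, and Kcnj10 lost its call in 1 of 8. In whole tissue, fewer cells of a type and less RNA per cell cannot be told apart. The part of these shifts in the levels of Prdx6, Mgst1 and Srxn1 was not tested.

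The wider pathway was read from 81 further genes, of which 79 had a probe and 73 were tested. Of these, 4 rose and 0 fell (5.48%, all tested genes 3.47%, with 1.99% higher), and the median difference was 0.01. These calls were lost without the filter on dim probes, and all 4 were lost on leaving out WT sample 1, WT sample 2, KO sample 3 or KO sample 4. Beside Ncf4 they were Oplah, Chac1 and Selenop. Oplah, 5-oxoprolinase, which returns glutamate from the breakdown of glutathione, read 1.27, 1.29, 1.39 and 1.33 in WT and 1.55, 1.54, 1.63 and 1.67 in KO (difference 0.28, limma adjusted p = 0.0210). Chac1, an enzyme that degrades glutathione and is induced by the integrated stress response, read -0.33, -0.15, -0.21 and -0.10 in WT and 0.05, 0.09, 0.05 and 0.10 in KO (difference 0.27, limma adjusted p = 0.0310). Both lay higher in every KO sample.

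Selenop, the secreted selenium carrier, read 1.59, 1.62, 1.61 and 1.78 in WT and 1.89, 1.92, 1.99 and 1.87 in KO (difference 0.27, limma adjusted p = 0.0323). Again no KO sample reached down to the WT values. Without the minimum fold change, Aldh1l1, the folate enzyme used as an astrocyte marker, also passed (0.21, limma adjusted p = 0.0242), and Gstm7 passed in the other direction (-0.25, limma adjusted p = 0.0400). By group, limma called 2 of 10 genes of cystine and glutathione handling (3 at an unadjusted p under 0.05), 1 of 15 genes of methionine sulfoxide reduction and other thiol repair (3 at that level), and 1 of 6 other NADPH oxidase subunits (1). It called 0 of 9 genes of NADPH supply (4), 0 of 7 other NRF2 pathway factors (5), 0 of 12 other glutathione S-transferases and peroxidases (6) and 0 of 14 other detoxifying and quinone enzymes (3). Over all 73 genes, 25 reached that level (34.2%, all tested genes 26.2%). The NADPH genes had a median difference of -0.11, with 7 of 9 lower in KO. Nfe2l3, Maff, the cystine transporter gene Slc7a11, Nox3 and Duox1 were not well above background and were not tested.

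The aldehyde dehydrogenases completed the set. Aldh1a1, which makes retinoic acid, differed by 0.08 and Aldh3a1 by -0.15 with a 95% confidence interval of -0.44 to 0.15. As the check of the labels, Lpcat1 itself was -0.41 ± 0.03 in WT and -0.87 ± 0.06 in KO at its only probe, a difference of -0.46 (SE 0.04, limma adjusted p = 0.0036). Whether this probe falls inside the deleted stretch is not known here, so the remaining signal does not show that intact transcript was left. Per array, 33110 to 36366 of 55681 probes stood well above background, and 4 arrays per genotype set the precision.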

How the data were processed

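Total RNA from 4 WT and 4 KO retinas, grouped and numbered by their labels, was hybridised in 1 colour (Cy3) to Agilent arrays by the authors and read with Agilent Feature Extraction 10.7.1.1 (submitters' processing notes). The deposited scanner files hold background-subtracted intensity on a linear scale for 62976 spots. The authors also deposited log2 values after a 75th percentile shift, which lie a constant per array (0.12 to 0.15) above the levels used here and served as an alternative. No column of per-sample values was left unused (0 columns).

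The processed signal was log2-transformed without a pseudocount, and the 75th percentile of the 59305 spots that are not controls was subtracted on each array. Outlier spots (86 to 147 per array) were left out, 0 spots were saturated, and repeated spots of a probe were averaged. Probes were named by RefSeq transcript (26413 of 55681, 47.4%), and the probe with the highest mean over 8 arrays stood for a gene. The difference between genotypes was fitted in limma 3.58.1 under R 4.3.3 (lmFit, eBayes) with no covariate, and p-values were adjusted by Benjamini-Hochberg over all 33972 tested probes. The step was tested on simulated data.

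The set's genes and the other lists were chosen with earlier results of these data known. Named genes were those called, the 10 largest differences, a fixed group of central pathway genes, untested genes, the called genes of the other lists and Lpcat1. Further genes of the set are given to account for all 48, and some genes of the other lists are not reported here. Alternatives were other scalings, normexp on median spot signals (offset 50), filters, thresholds, tests, probe averaging, a replicate block and leaving out each array. Further probes of Prdx6 and Mgst1 and the microglia sum without Itgam were added after seeing the data. The arrays shared 1 scan, so no slide block was fitted.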

Additional observations from a re-analysis of the deposited data

Results flagged for a closer look

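In 104 groups of 4 samples (52 genes, 2 genotypes), 6 held a sample set apart from the other 3 by Dixon's criterion, which chance reaches in about 1 in 20 groups. Fth1 read 6.96 in WT sample 2 and 7.01 to 7.02 in the other WT samples. Gsta4 read -0.24 in KO sample 1, toward WT, and -0.16 to -0.14 in the other KO samples. Ncf4 read -2.89 in KO sample 2 and -2.76 to -2.74 in the others. Prdx2 read 4.99 in WT sample 3 and 4.86 to 4.88 in the others. Selenop read 1.78 in WT sample 4, toward KO, and 1.59 to 1.62 in the others. Txnrd1 read 2.06 in KO sample 2, within the WT range, and 1.95 to 1.97 in the others.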

How the results depend on the processing

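The number of the set's genes called (2 as reported) was 1 after a median shift, where Prdx6 had an adjusted p of 0.0866, 1 under normexp, 1 with the mean of a gene's probes, 0 without a filter on dim probes (adjusted p 0.0568 for Mgst1 and 0.0996 for Prdx6), 4 without a minimum fold change and 0 at a fold change of 1.5. Leaving out 1 array gave 1 to 2. The other pathway genes called (4 as reported) numbered 2 after a median shift, 2 under normexp, 0 without a filter and 0 at a fold change of 1.5, and 0 to 4 without 1 array (0 without WT replicate 1, WT replicate 2 or KO replicate 4, 1 without WT replicate 3, 2 without KO replicate 2, and 1 without KO replicate 3, which was a gene lower in KO and none of the 4). The number of all tested genes called (519 as reported) was 158 without a filter, 989 without a minimum fold change, 69 at a fold change of 1.5, 1108 at an adjusted p under 0.5, 593 without KO replicate 1, and 238 to 312 without any 1 of the other arrays. With all 8 arrays, the methods' t-test on the 47 genes called 2 at the unadjusted threshold with the minimum fold change (4.26%, all tested genes 5.39%), and 7 (14.9%, all tested genes 8.14%) passed after adjustment without it. The Lpcat1 difference of -0.46 lay below a fold change of 1.5. Mgst1 and Prdx6 were higher in KO under all 25 alternatives. The median difference over the set stayed between -0.02 and 0.03.

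With replicate number as a block, 1 gene of the set (Prdx6, with Mgst1 at an adjusted p of 0.0583), 0 of the other pathway genes and 221 of all genes were called. The labels give no shared litter, batch or day for a number. Deviations of same-numbered samples from their group means correlated at 0.25, 0.07, 0.04 and 0.11, not all above 0.1, so the samples were not treated as paired, although 7 of 8 samples correlated best with their own number in the other genotype, a hint from the data and not from the design.

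The signs that turned belonged to differences that were not called, from -0.06 to 0.06 as reported except for Fth1 (-0.11). With the percentile over detected probes, Prdx1 was 0.0043, Sod2 0.0035 and Ucp2 0.0083. With array weights, Ucp2 was 0.026. After cyclic loess, Prdx1 was 0.018, Sod2 0.037, Ftl1 0.022 and Ucp2 0.0099. Under normexp, Sod1 was -0.0058, Prdx5 -0.031 and Ucp2 0.018. After quantile normalization, Prdx1 was 0.017, Fth1 0.0069, Sod2 0.041 and Ftl1 0.030. Over the fits that left out 1 array, Gss ran from -0.10 to 0.0083, Ucp2 from -0.076 to 0.021, Prdx5 from -0.020 to 0.030 and Prdx1 from -0.046 to 0.0037. The cause of these changes was not tested. Brightness above background limits dim probes such as Nox4 and Cybb.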
